A study of Mus musculus with 12 samples.

Results

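The enzymes of glycolysis and of the citric acid cycle, with the carriers of glucose and lactate, were followed as 35 genes among the 23284 genes of each deposited table. The rule names them by gene symbol and uses no measured value, though the members were chosen with earlier results of these data known. All 35 symbols were found in both tables. The list holds 4 transporters, 9 genes of upper glycolysis, 6 of lower glycolysis, 2 lactate dehydrogenase genes, 3 genes of the pyruvate dehydrogenase complex and 11 genes of the citric acid cycle. RNA came from invariant NKT (natural killer T) cells, which recognise lipids presented by CD1d, sorted from C57BL/6 mice as live CD45R- CD4- CD8- cells that bound CD1d dimer and stained for TCRb. In each tissue, thymus and liver, 3 cKO libraries stand against 3 YFP+ libraries. The cKO mice carry floxed Rag2 and an E8III-Cre transgene, a Cre that acts in CD4+ CD8+ double-positive (DP) thymocytes, so that their NKT cells derive from the double-negative (DN) stage. The YFP+ mice carry the same E8III-Cre with a Rosa26 loxP-STOP-loxP reporter, which marks NKT cells that passed the DP stage. Every group therefore carries the Cre, only cKO loses Rag2, and the origin of the cells and the kind of mouse cannot be told apart. The ages of the mice and the number of mice behind a library are not given in the sources used here.

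Glycolysis splits glucose into pyruvate in the cytosol. Upper glycolysis spends ATP to make triose phosphates and lower glycolysis recovers it. Lactate dehydrogenase turns pyruvate into lactate, while the pyruvate dehydrogenase complex turns it into the acetyl-CoA that the citric acid cycle oxidises in mitochondria. Resting T cells rely mostly on mitochondrial oxidation, and activated T cells raise glycolysis and lactate release under the control of factors such as Myc and HIF-1.

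Values are FPKM, fragment counts scaled to transcript length and to the mapped total of a library, and the depth of a library is unknown because no read totals come with them. Library sums were 187828 to 194655 FPKM in thymus cKO, 198790 to 212688 in thymus YFP+, 450429 to 465304 in liver cKO and 509267 to 558042 in liver YFP+. The thymus and the liver table were normalized separately, so levels are compared within a tissue only. For the 6 liver libraries the title and the description name opposite mice. Groups follow the titles, as the column headers do, and if the descriptions were right, all liver differences would change sign and the comparison of the tissues would change as given with it. Thymus Rag2 was 0, 0.015 and 0 FPKM in cKO and 0, 0 and 0 in YFP+. Liver Rag2 was 0, 0 and 0 FPKM in cKO and 1.37, 0.985 and 1.08 in YFP+. All 10 NKT and T cell markers were above 1 FPKM in every library. By the test given below, 4 of them were lower in cKO thymus, and 3 lower and 2 higher in cKO liver. The shares over all tested genes were 13.1% lower in cKO thymus, and 19.7% lower and 7.49% higher in cKO liver. Haemoglobin and other erythroid markers (8 genes) summed to 107.7, 0.201 and 14.3 FPKM in thymus cKO replicates 1, 2 and 3 and to at most 0.922 in thymus YFP+, so cKO replicate 1 stood apart. The part of these cells in any result was not tested, and the count of members is also given without that library.

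Gapdh and Eno1 were the most abundant members in all 4 groups, followed by Mdh2. In the thymus mean levels reached 167.9 FPKM for Gapdh and 144.1 for Eno1 in cKO, and 180.3 and 134.9 in YFP+. In the liver Eno1 came before Gapdh in cKO (520.3 and 456.0 FPKM) and after it in YFP+ (442.8 and 581.6). At the other end, 5 members had a mean below 1 FPKM over the libraries of each tissue and were not tested: the muscle-type phosphofructokinase Pfkm, the brain-type aldolase Aldoc, the inducible hexokinase Hk2 and the lactate carriers Slc16a1 (MCT1) and Slc16a3 (MCT4). Hk2 was 0.101, 0.189 and 0.115 FPKM in cKO and 0.149, 0.188 and 0.207 in YFP+ thymus, and 0.712, 0.482 and 0.375 FPKM in cKO and 0.714, 0.668 and 0.357 in YFP+ liver. Hk2 groups overlapped in both tissues. The other 4 low members ranged from 0.054 to 1.609 FPKM in thymus and from 0.220 to 1.294 in liver libraries, and of these only thymus Slc16a1 had groups that did not overlap, at 0.907 to 1.609 in cKO and 0.706 to 0.822 in YFP+. The remaining 30 members had a mean above 1 FPKM in each of the 4 groups and were tested.

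In the thymus 0 of 30 tested members were higher and 7 were lower in cKO (23.3%), and in the liver 2 were higher and 16 lower (53.3%). The test was limma on log2(FPKM + 1), fitted over every gene whose mean reached 1 FPKM, and a call is a Benjamini-Hochberg adjusted p of at most 0.05. Over all tested genes 13.1% were lower and 2.64% higher in cKO thymus (of 9097), and 19.7% were lower and 7.49% higher in cKO liver (of 9591). Most tested members lay above 5 FPKM. With the filter raised to that level, 19.9% were lower and 3.20% higher in cKO thymus (of 5155). In cKO liver 30.3% were then lower and 9.53% higher (of 5666). Beside these shares the 23.3% of the thymus is near the background. The 53.3% of the liver stays above it, by a smaller gap that was not tested. Lower calls outnumbered higher ones in both tables as deposited, and the median gene lay at -0.16 in the thymus and -0.11 in the liver. Differences below are log2(FPKM + 1), cKO minus YFP+, less that median gene, while p-values belong to the values as deposited. On this scale the change of low genes is understated. The median member lay at -0.02 in the thymus and -0.21 in the liver. With libraries rescaled by median ratios the split over all genes became 4.97% higher and 3.96% lower in the thymus and 10.8% and 10.9% in the liver. The members then gave 3 higher and 2 lower in the thymus, and 2 higher and 6 lower in the liver. Without thymus cKO replicate 1, 10 members were lower and 0 higher in the thymus, adding Fh1, Gpi1 and Hk1, beside 22.6% lower and 3.88% higher over all genes. Without any other thymus library 2 or 3 were lower, beside 3.73 to 5.38% of all genes. The liver count was 10 without cKO replicate 1 or 2, 11 without cKO replicate 3 and 9 without YFP+ replicate 2, with 9 or 10 of these lower, beside 11.4 to 13.9% lower over all genes. Nothing in the labels ties the 3 libraries of a group to separate mice. The p-values therefore reflect only how these libraries vary, which may be technical. RNA of sorted cells in bulk cannot tell fewer cells of a kind from less RNA per cell.

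**Figure D1:**
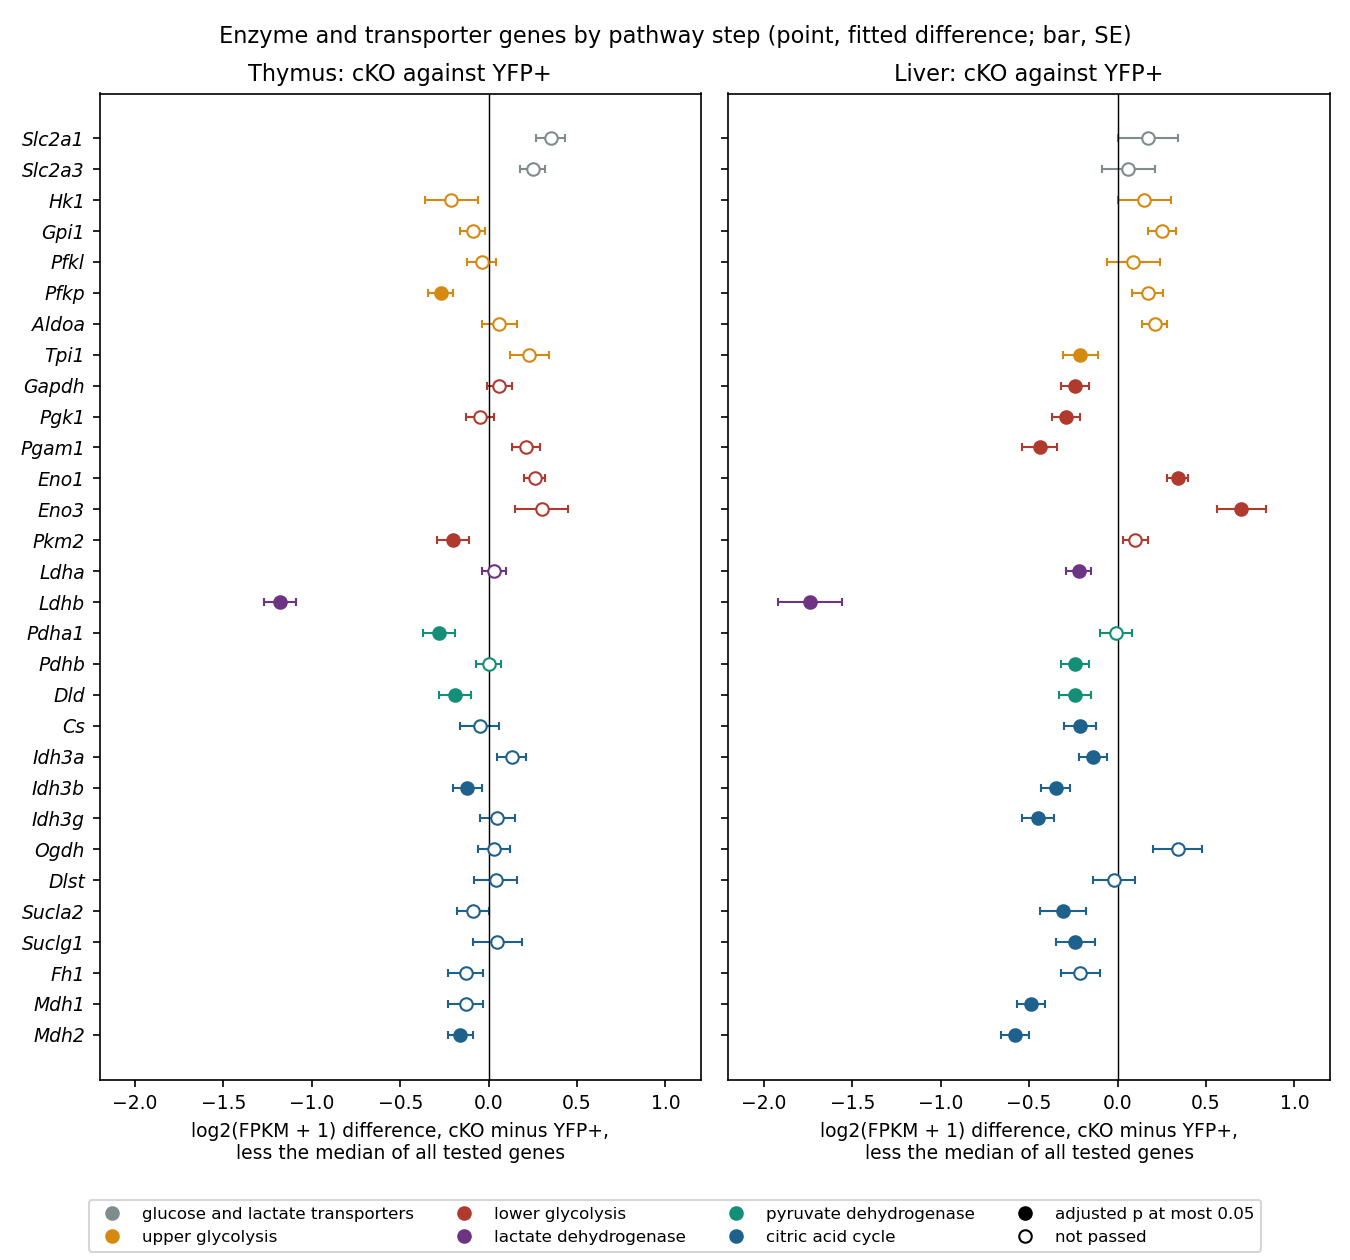
Fitted difference (cKO minus YFP+) in log2(FPKM + 1), less the median of all tested genes, for the 30 tested members in thymus (left) and liver (right); points are the difference, bars its SE (3 against 3 libraries), colours the pathway step, and filled points an adjusted p of at most 0.05. Ldhb lies farthest to the left in both tissues, at -1.18 and -1.74, and in the liver 8 of 11 citric acid cycle members are filled on the lower side.

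Lactate dehydrogenase, a tetramer of A and B subunits, held the member with the largest change in both tissues. Ldhb, whose B subunit prevails in oxidative tissues such as heart, was lower in cKO in both tissues. In the thymus it was 1.08, 1.199 and 1.198 FPKM in cKO and 4.36, 4.38 and 4.73 in YFP+. In the liver it was 8.57, 6.496 and 4.99 FPKM in cKO and 30.5, 23.9 and 24.5 in YFP+. All 3 cKO libraries lay below all 3 YFP+ libraries in both tissues, with YFP+ means 3.87-fold higher in the thymus and 3.93-fold higher in the liver. The fitted difference was -1.18 (SE 0.09, adjusted p = 0.000115) in the thymus and -1.74 (SE 0.18, adjusted p = 0.000366) in the liver. The call held in each of the 6 fits without 1 library in either tissue, with adjusted p of at most 0.00182 in the thymus and 0.00332 in the liver. It also held with median-ratio scaling (adjusted p = 0.0002 and 0.000702). Ldha, whose A subunit prevails in glycolytic cells and in muscle, was the major gene of the pair in every library. In the thymus Ldha was 35.8, 32.4 and 35.7 FPKM in cKO and 36.5, 38.7 and 38.8 in YFP+, a difference of 0.03 (SE 0.07, adjusted p = 0.222), so the thymus values lay below YFP+ by about as much as those of the median gene. In the liver Ldha was 121, 119 and 124 FPKM in cKO and 157, 157 and 146 in YFP+, a lower level in cKO with a difference of -0.22 (SE 0.07, adjusted p = 0.0101). Its groups did not overlap in either tissue, and median-ratio scaling ended the liver call (adjusted p = 0.106).

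Within a library, where scaling cancels, the Ldhb share of both lactate dehydrogenase genes in the thymus was 3.25% ± 0.321 for cKO and 10.6% ± 0.36 for YFP+ (SD, n = 3 each). In the liver the share was 5.22% ± 1.37 in cKO and 14.6% ± 1.55 in YFP+ (SD, n = 3). The library values were 2.92, 3.57 and 3.25% against 10.7, 10.2 and 10.9% in the thymus, and 6.60, 5.17 and 3.87% against 16.3, 13.2 and 14.4% in the liver. The groups did not overlap in either tissue. The exact two-sided permutation test gave p = 0.1 in each tissue, the smallest that 3 against 3 libraries allow, and 0.28 after adjustment over 14 shares. A window of 50 bases from an Ldhb transcript occurred in transcripts of 1 other gene in 21% of cases, and one from an Ldha transcript in those of 14 other genes in 10.4% of cases, so a part of the reads may be shared with copies.

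The 250 bases upstream of the RefSeq start sites (GRCm38.p6, a later build than the mm9 of the files) are shown for this pair because the genes differ in both their level and their change. Capitals mark ACGTG on either strand, the core letters that HIF-1 recognises, and CACGTG, the E-box that Myc recognises. CACGTG contains ACGTG, so each E-box is also counted under the shorter motif.
Ldha, first start site, chr7:46845554-46845803, plus strand: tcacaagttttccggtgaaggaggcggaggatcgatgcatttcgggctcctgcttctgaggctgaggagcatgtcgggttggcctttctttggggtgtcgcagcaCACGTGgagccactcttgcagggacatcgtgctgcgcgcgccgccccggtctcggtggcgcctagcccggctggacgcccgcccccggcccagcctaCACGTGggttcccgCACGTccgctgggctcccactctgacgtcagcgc
Ldhb, chr6:142507958-142508207, minus strand: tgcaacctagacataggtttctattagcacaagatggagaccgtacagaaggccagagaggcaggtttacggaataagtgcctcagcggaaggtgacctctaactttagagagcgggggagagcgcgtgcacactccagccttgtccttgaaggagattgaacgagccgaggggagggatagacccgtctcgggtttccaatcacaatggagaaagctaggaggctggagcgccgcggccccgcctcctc
The Ldha window held 3 separate sites and the Ldhb window 0. A second RefSeq start site of Ldha, chr7:46846832-46847081, also held 0. Windows were found for 33 of the 35 members. Of all 32851 mouse windows 16.6% held ACGTG on either strand, against 42.9% of 49 member windows, and 6.02% held CACGTG, against 12.2% of member windows. Counted per gene, 14 of 33 members (42.4%) held ACGTG in a window and 4 (12.1%) held CACGTG. The set of all windows was not matched to the members for expression or base content. Whether members hold more sites than similar promoters was therefore not tested. These are letter matches and not measured binding.

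**Figure D2:**
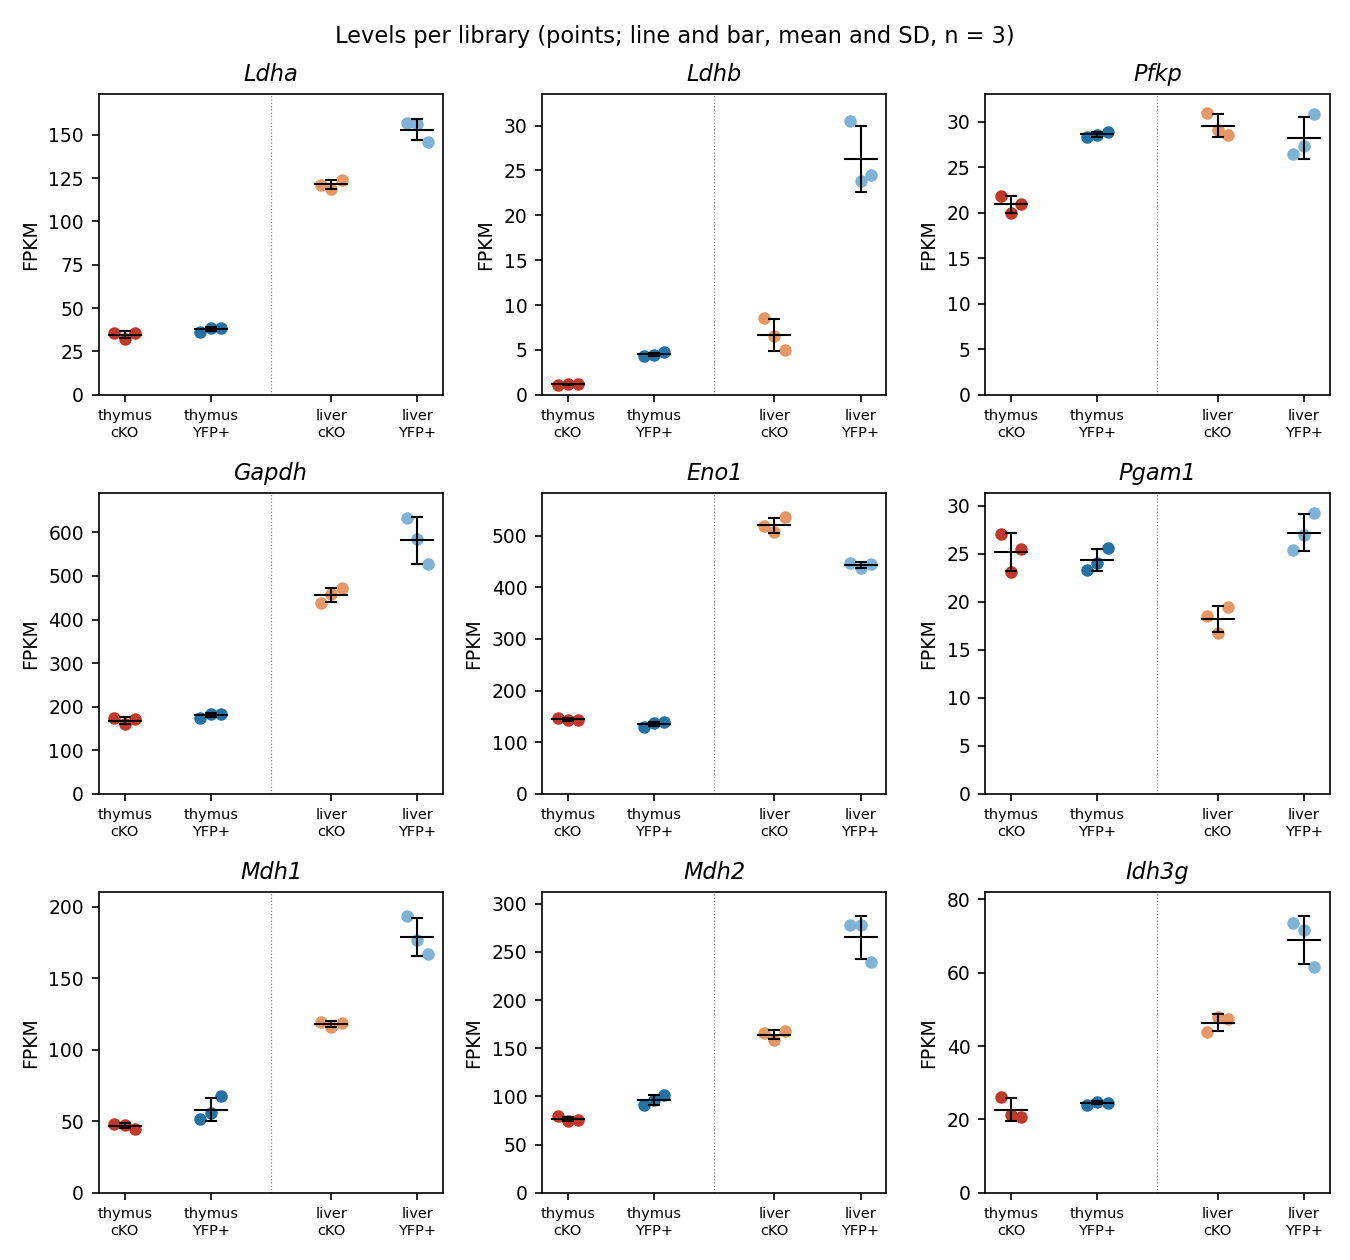
FPKM of 9 members per library, with 3 libraries in each of 4 groups (points) and the mean and SD (line and bar); each axis starts at 0, and the dotted line parts thymus and liver, which were normalized separately. Ldhb, Mdh1, Mdh2 and Idh3g are lower in all liver cKO libraries than in any liver YFP+ library, and Eno1 is higher.

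The glucose carriers did not pass in either tissue. Slc2a1 (GLUT1) was 9.499, 9.13 and 8.75 FPKM in cKO and 8.15, 7.73 and 7.89 in YFP+ thymus, where the groups did not overlap. Its difference in the thymus was 0.35 (SE 0.08, adjusted p = 0.124). In the liver Slc2a1 was 13.4, 10.2 and 11.9 FPKM in cKO and 9.12, 10.6 and 14.6 in YFP+ (0.17, adjusted p = 0.823), with overlapping groups. Slc2a3 (GLUT3), a high-affinity carrier, made up 72.8% of the pair in thymus cKO and 74.3% in thymus YFP+. Slc2a3 was 25.3, 22.9 and 25.1 FPKM in cKO and 22.6, 22.7 and 23.3 in YFP+ thymus (0.25, adjusted p = 0.39). In the liver it was 24.2, 20.8 and 24.7 FPKM in cKO and 20.2, 23 and 29.95 in YFP+ (0.06, adjusted p = 0.818). Slc2a3 groups overlapped in both tissues. With median-ratio scaling both carriers passed as higher in cKO thymus (adjusted p = 0.0241 for Slc2a1 and 0.027 for Slc2a3).

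Of 6 tested upper glycolysis members 1 was lower in each tissue and none higher, Pfkp in the thymus and Tpi1 in the liver. Over all genes 13.1% were lower in the thymus and 19.7% in the liver, so these counts are near the background. Pfkp, the platelet-type phosphofructokinase and the major isoenzyme of the committed step here, was 21.8, 19.98 and 20.99 FPKM in cKO and 28.4, 28.6 and 28.9 in YFP+ thymus. All cKO values lay below all YFP+ values, with a difference of -0.27 (SE 0.07, adjusted p = 0.00751), and the call held in each fit without 1 library (highest adjusted p = 0.0365) and with median-ratio scaling (0.0395). In the liver Pfkp was 30.97, 29.1 and 28.6 FPKM in cKO and 26.5, 27.3 and 30.9 in YFP+, with overlapping groups (0.17, adjusted p = 0.637). The Pfkp share of the 3 phosphofructokinase genes in the thymus was 61.4% ± 0.545 for cKO and 65.0% ± 0.751 for YFP+ (SD, n = 3), without overlap (exact permutation p = 0.1, adjusted 0.28). Tpi1, triose phosphate isomerase, was 50.5, 53.9 and 59.1 FPKM in cKO and 74.8, 68.1 and 62.6 in YFP+ liver, a difference of -0.21 (SE 0.10, adjusted p = 0.0394). That call was lost under median-ratio scaling (adjusted p = 0.217) and without cKO replicate 1 or 2 or YFP+ replicate 1 or 2 (0.0728 to 0.137). In the thymus Tpi1 was 19.02, 15.3 and 14.6 FPKM in cKO and 14.1, 15.6 and 16.8 in YFP+, with overlapping groups (0.23, adjusted p = 0.685).

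Hk1, the constitutive hexokinase, was 12.1, 7.43 and 9.21 FPKM in cKO and 12.3, 11.8 and 13.4 in YFP+ thymus (-0.21, adjusted p = 0.112). Its cKO replicate 1 lay among the YFP+ libraries, and without that library Hk1 passed as lower (adjusted p = 0.0106). In the liver Hk1 was 9.13, 10.3 and 9.75 FPKM in cKO and 7.64, 9.19 and 11.9 in YFP+ (0.15, adjusted p = 0.873). Gpi1, glucose phosphate isomerase, was 26.3, 24.2 and 25.1 FPKM in cKO and 28.5, 30.8 and 31.5 in YFP+ thymus, and 117, 109 and 110.2 FPKM in cKO and 103, 95.2 and 107 in YFP+ liver. Its groups did not overlap in either tissue, with cKO below YFP+ in the thymus (-0.09, adjusted p = 0.0532) and above it in the liver (0.25, adjusted p = 0.205), and neither passed. The liver-type phosphofructokinase Pfkl and the aldolase Aldoa did not pass in either tissue, at differences of -0.04 to 0.21 (adjusted p = 0.0993 to 0.947).

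Lower glycolysis members moved both ways in the liver, where Eno1 and Eno3 were higher and Gapdh, Pgk1 and Pgam1 lower in cKO. In the thymus 1 of 6, Pkm2, was lower, beside 13.1% over all genes. Over all genes in the liver 7.49% were higher and 19.7% lower. Eno1, the alpha enolase found in most cells, was 518, 507 and 536 FPKM in cKO and 448, 437 and 444 in YFP+ liver. Every cKO library lay above every YFP+ library, a difference of 0.34 (SE 0.06, adjusted p = 0.0276). Eno3, the beta enolase of muscle, was far less abundant, at 3.95, 2.995 and 3.46 FPKM in cKO and 2.17, 1.76 and 1.95 in YFP+ liver, and its difference was 0.70 (SE 0.14, adjusted p = 0.0151). Both calls held with median-ratio scaling (adjusted p = 0.0172 for Eno1 and 0.0118 for Eno3). Without a single library, Eno1 did not pass when cKO replicate 1, 2 or 3 or YFP+ replicate 2 was left out (0.0777 to 0.115), and Eno3 when cKO replicate 1 (0.0586) or YFP+ replicate 2 (0.0599) was. In the thymus Eno1 was 147, 142 and 143 FPKM in cKO and 129.7, 137 and 138 in YFP+ (0.26, adjusted p = 0.29), without overlap, and passed as higher with median-ratio scaling (0.0152). Thymus Eno3 was 2.07, 2.1 and 2.48 FPKM in cKO and 1.99, 1.39 and 2.53 in YFP+ (0.30, adjusted p = 0.53), with overlap.

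Gapdh, which makes the NADH of glycolysis, was 438, 458 and 472 FPKM in cKO and 633, 586 and 527 in YFP+ liver, with no overlap and a difference of -0.24 (SE 0.08, adjusted p = 0.0173). This call was lost under median-ratio scaling (adjusted p = 0.152) and without cKO replicate 1 or 2 or YFP+ replicate 2 (0.0633 to 0.0781). In the thymus Gapdh was 173, 159.5 and 171 FPKM in cKO and 175, 184 and 182 in YFP+ (0.06, adjusted p = 0.277). Pgk1, phosphoglycerate kinase, was 65.5, 71.4 and 69.1 FPKM in cKO and 94.9, 92.9 and 83.95 in YFP+ liver, a difference of -0.29 (SE 0.08, adjusted p = 0.00913). It did not overlap between groups and missed the threshold with median-ratio scaling (adjusted p = 0.0682). Thymus Pgk1 was 21.97, 21.7 and 20.1 FPKM in cKO and 23.1, 24.4 and 26.9 in YFP+ (-0.05, adjusted p = 0.107). Pgam1, phosphoglycerate mutase, was 18.5, 16.8 and 19.5 FPKM in cKO and 25.4, 26.98 and 29.3 in YFP+ liver, a difference of -0.44 (SE 0.10, adjusted p = 0.00537). Its call held in each fit without 1 library (highest adjusted p = 0.0264) and with median-ratio scaling (0.0144), and ended when each library was set to the same sum (0.0700). In the thymus Pgam1 was 27.1, 23.1 and 25.5 FPKM in cKO and 23.3, 24.1 and 25.6 in YFP+, with overlapping groups (0.21, adjusted p = 0.683).

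Pkm2, listed under that symbol for the pyruvate kinase gene and not for one splice form, was 27.5, 24.2 and 25.3 FPKM in cKO and 31.3, 32.3 and 36.2 in YFP+ thymus. Its thymus groups did not overlap, and the difference was -0.20 (SE 0.09, adjusted p = 0.0297). Among fits without 1 library the call was kept only without cKO replicate 1 (0.0131 against 0.0586 to 0.0914), and it ended with median-ratio scaling (0.14). In the liver Pkm2 was 88.8, 91.8 and 94.3 FPKM in cKO and 90.4, 89 and 97.7 in YFP+, with overlapping groups (0.10, adjusted p = 0.933).

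The levels of Gapdh, Eno1, Pgk1 and Pgam1 are uncertain because they share sequence with near-identical copies, many of them processed pseudogenes. Windows of 50 bases from their transcripts recurred in other genes in 58.4% of cases for Gapdh, 49.5% for Eno1, 68.0% for Pgk1 and 41.5% for Pgam1. Gm12070, a Gapdh copy, was 406, 418 and 441 FPKM in cKO and 588, 537 and 485 in YFP+ liver, a difference of -0.24 (SE 0.09, adjusted p = 0.0194). Gm5506, an Eno1 copy, was 125, 119 and 129.6 FPKM in cKO and 108, 106 and 106 in YFP+ liver, a difference of 0.33 (SE 0.07, adjusted p = 0.0438). In the liver each copy had the direction of its parent gene. The share was 30.3% for Pdhb, 24.5% for Gpi1, 23.7% for Pkm2, 16.9% for Pdha1 and 15.4% for Pfkp. Such windows need not mark a copy. For Pfkp all of them fell in Pitrm1, for Pdha1 most in Map3k15 (16.5%), and for Gpi1 they were spread over 122 other genes. Eno3 shared 0% of its windows, as did Mdh2, Dld, Ogdh and the 3 Idh3 genes.

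The ratio of Eno1 to Gapdh inside a library, a measure chosen after the values were seen and given without a test, was 118, 111 and 114% in liver cKO and 70.7, 74.6 and 84.4% in liver YFP+. In the thymus it was 84.9, 89.2 and 83.7% in cKO and 74.1, 74.5 and 75.8% in YFP+. The ratio was higher in every cKO library than in any YFP+ library of the same tissue.

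**Figure D3:**
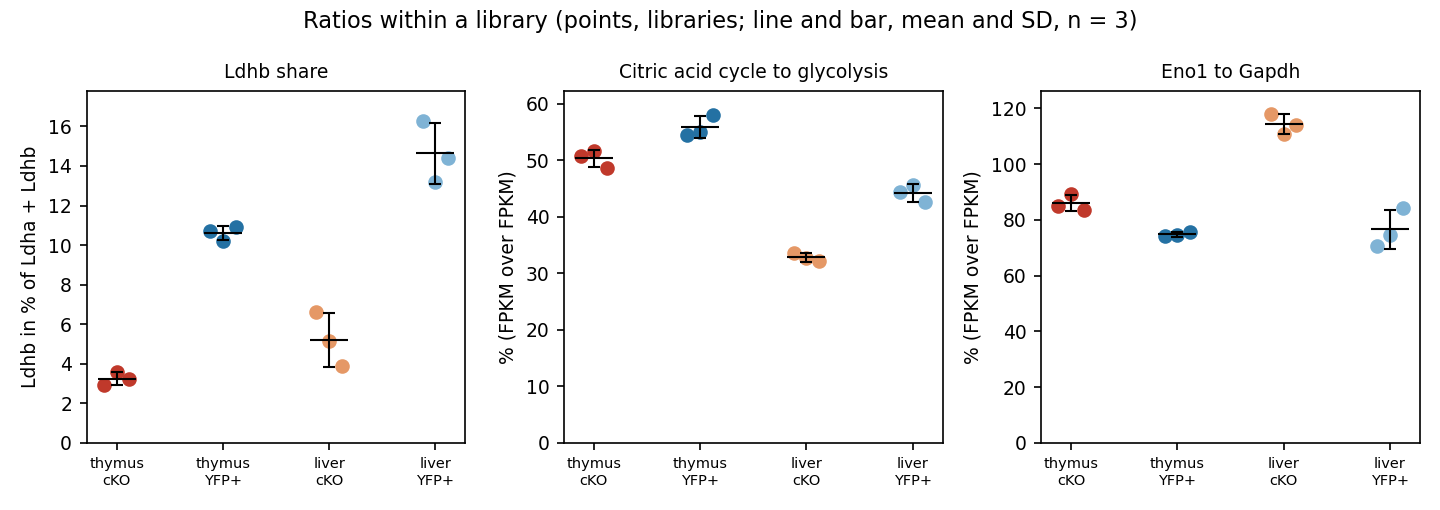
Ratios within a library for the 4 groups (points are libraries, line and bar the mean and SD, n = 3; axes start at 0): Ldhb in percent of Ldha plus Ldhb, summed citric acid cycle members in percent of summed glycolysis and lactate dehydrogenase members, and Eno1 in percent of Gapdh. In both tissues the cKO libraries lie below the YFP+ libraries in the first and second panel and above them in the third. Mdh2 and Mdh1 weigh most in the citric acid cycle sum.

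Pyruvate dehydrogenase links glycolysis to the citric acid cycle. Of its 3 members 2 were lower in each tissue, beside 13.1% lower over all genes in the thymus and 19.7% in the liver. With the filter at 5 FPKM the shares over all genes were 19.9% in the thymus and 30.3% in the liver. The counts of members rest on 3 genes. Pdha1, the regulated E1 alpha subunit, was 33.9, 27.8 and 31.8 FPKM in cKO and 41.6, 41.2 and 45.4 in YFP+ thymus, without overlap and with a difference of -0.28 (SE 0.09, adjusted p = 0.0173). The call was lost without cKO replicate 3 (0.0559), YFP+ replicate 1 (0.0536) or YFP+ replicate 3 (0.0682), as it was under median-ratio scaling (0.0519). In the liver Pdha1 was 53.1, 49.4 and 48.6 FPKM in cKO and 52.9, 51.99 and 60.1 in YFP+, with overlapping groups (-0.01, adjusted p = 0.334). Pdhb, the E1 beta subunit, was 46.02, 44.5 and 44.3 FPKM in cKO and 61.4, 54.02 and 57.5 in YFP+ liver, a difference of -0.24 (SE 0.08, adjusted p = 0.0144). It was lost without cKO replicate 2 (0.0550) or 3 (0.0536). In the thymus Pdhb was 18.4, 18.01 and 18.5 FPKM in cKO and 20.3, 19.8 and 21.8 in YFP+ (0.00, adjusted p = 0.141). Dld, the E3 subunit that pyruvate and 2-oxoglutarate dehydrogenase share, passed in both tissues, at 18.1, 15.4 and 17.1 FPKM in cKO and 23.4, 19.7 and 22.2 in YFP+ thymus (-0.19, SE 0.09, adjusted p = 0.0417). In the liver Dld was 25.7, 22.8 and 23.4 FPKM in cKO and 29.4, 32.1 and 30.8 in YFP+ (-0.24, SE 0.09, adjusted p = 0.021). Its thymus call was kept only without cKO replicate 1 (0.0209, against 0.0566 to 0.123 without the others), and its liver call ended without cKO replicate 2 or 3 or YFP+ replicate 2 (0.0722 to 0.0803). With median-ratio scaling 0 of the 3 passed in either tissue.

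The citric acid cycle held 8 of the 18 liver calls, with 8 of its 11 members lower in cKO and none higher, beside 19.7% lower over all genes. In the thymus 2 of 11 were lower, Idh3b and Mdh2, beside 13.1%. With the filter at 5 FPKM the shares over all genes were 30.3% in the liver and 19.9% in the thymus. With median-ratio scaling 4 of 11 stayed called in the liver, Idh3b, Idh3g, Mdh1 and Mdh2 (10.9% lower over all genes), and 0 in the thymus (3.96%). Mdh2, the mitochondrial malate dehydrogenase that closes the cycle, was 166, 159 and 168 FPKM in cKO and 278, 278 and 239.7 in YFP+ liver. All cKO values lay well below all YFP+ values, a difference of -0.58 (SE 0.08, adjusted p = 0.000959). In the thymus Mdh2 was 79.4, 74.7 and 76.03 FPKM in cKO and 90.9, 96.3 and 102 in YFP+ (-0.16, SE 0.07, adjusted p = 0.0226), again without overlap. This thymus call was lost without cKO replicate 2 or 3 or YFP+ replicate 2 or 3 (0.0705 to 0.0803). Mdh1, the cytosolic enzyme of the malate-aspartate shuttle, was 119, 116 and 119 FPKM in cKO and 193, 177 and 167 in YFP+ liver, a difference of -0.49 (SE 0.08, adjusted p = 0.00139). Thymus Mdh1 was 48.1, 47.7 and 44.7 FPKM in cKO and 51.8, 55.4 and 67.3 in YFP+, without overlap, and did not pass (-0.13, adjusted p = 0.0767). The liver calls of Mdh1 and Mdh2 held in each fit without 1 library, with adjusted p of at most 0.0108 and 0.00806, and with median-ratio scaling (0.0106 and 0.00532).

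Isocitrate dehydrogenase 3, the NAD-dependent enzyme of the cycle, has 3 subunit genes, and all 3 were lower in cKO liver. Idh3g, a regulatory subunit, was 43.8, 48.03 and 47.3 FPKM in cKO and 73.6, 71.7 and 61.5 in YFP+ liver, a difference of -0.45 (SE 0.09, adjusted p = 0.00422). Idh3b was 54.9, 51.1 and 55.1 FPKM in cKO and 76.3, 75.4 and 71.6 in YFP+ (-0.35, SE 0.08, adjusted p = 0.00374), and Idh3a, the catalytic subunit, was 34.7, 34.2 and 34.3 FPKM in cKO and 42.3, 40 and 40.5 in YFP+ (-0.14, SE 0.08, adjusted p = 0.0428). No subunit overlapped between the liver groups. Idh3g and Idh3b kept their calls in each fit without 1 library (adjusted p of at most 0.0229 and 0.0213), while Idh3a passed in none of these fits (0.0540 to 0.118). In the thymus Idh3b was 37.9, 33.4 and 34.7 FPKM in cKO and 43.1, 42.1 and 44.5 in YFP+ (-0.12, SE 0.08, adjusted p = 0.04), a call kept only without cKO replicate 1 (0.0140, against 0.0888 to 0.119). Thymus Idh3g was 26.2, 21.1 and 20.6 FPKM in cKO and 24.04, 24.9 and 24.6 in YFP+ and Idh3a 18.3, 18.4 and 17.3 FPKM in cKO and 19.7, 17.9 and 18.01 in YFP+, both with overlap (adjusted p = 0.402 and 0.729).

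Cs, citrate synthase, the entry enzyme, was 30.02, 29.4 and 27.6 FPKM in cKO and 34.4, 35.4 and 39.6 in YFP+ liver, a difference of -0.21 (SE 0.09, adjusted p = 0.0308). Its call was kept only without YFP+ replicate 1 (0.0244, against 0.0620 to 0.106 without the others). In the thymus Cs was 19.4, 15.8 and 15.9 FPKM in cKO and 17.7, 19.7 and 22.3 in YFP+, with overlapping groups (-0.05, adjusted p = 0.189). Sucla2 and Suclg1, subunits of succinate-CoA ligase, passed narrowly in the liver. Sucla2 was 20.7, 24.6 and 16.7 FPKM in cKO and 26.9, 28.5 and 27.3 in YFP+ (-0.31, SE 0.13, adjusted p = 0.0488), and kept the call only without cKO replicate 2 (0.0268, against 0.0649 to 0.134). Suclg1 was 51.2, 47.97 and 48.8 FPKM in cKO and 64.6, 71.2 and 54.5 in YFP+ (-0.24, SE 0.11, adjusted p = 0.0404), and kept it only without YFP+ replicate 3 (0.00783, against 0.0672 to 0.130). Neither gene's groups overlapped in the liver. In the thymus Sucla2 was 11.1, 11.4 and 13.4 FPKM in cKO and 14.03, 14.8 and 14.4 in YFP+ (adjusted p = 0.0789) and Suclg1 25.2, 25.01 and 20.8 FPKM in cKO and 21.7, 24.7 and 31.5 in YFP+ (adjusted p = 0.544).

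Ogdh, the E1 subunit of 2-oxoglutarate dehydrogenase, was called in neither tissue. It was 3.97, 4.25 and 4.17 FPKM in cKO and 2.79, 3.37 and 4.05 in YFP+ liver, where the groups overlapped (0.34, adjusted p = 0.251). In the thymus it was 3.78, 3.97 and 4.12 FPKM in cKO and 4.42, 4.06 and 4.84 in YFP+ (0.03, adjusted p = 0.31). Dlst, the E2 subunit of the same complex, was called in neither tissue (0.04 in the thymus and -0.02 in the liver), nor was fumarase, Fh1 (-0.13, adjusted p = 0.0741, and -0.21, adjusted p = 0.0618).

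Summed over its 11 members, the citric acid cycle stood at 544 to 556 FPKM in liver cKO and 742 to 830 in liver YFP+ libraries. Mdh2 and Mdh1 weighed most in this sum. Their liver means were 164.3 and 117.9 FPKM in cKO and 265.2 and 179 in YFP+. The sum and the ratio below therefore follow both malate dehydrogenase genes, of which Mdh1 encodes the cytosolic enzyme, and do not show a change of the whole cycle. In percent of the summed glycolysis and lactate dehydrogenase members of the same library, a ratio also chosen after the values were seen and not tested, it was 33.6, 32.8 and 32.1% in liver cKO and 44.4, 45.7 and 42.6% in liver YFP+. Thymus libraries gave 50.8, 51.6 and 48.7% in cKO and 54.5, 55.1 and 58.1% in YFP+. No library of one group overlapped the other in either tissue, and the gap was wider in the liver, a difference that was not tested. Lower glycolysis summed to 1133 to 1194 FPKM in liver cKO and 1184 to 1293 in liver YFP+ libraries, with overlap. Upper glycolysis was 386 to 401 FPKM in liver cKO and 376 to 389 in liver YFP+.

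Markers of other cells moved with the liver groups. Erythroid genes (8, of which 4 were tested and all 4 lower in cKO) summed to 9.83 to 14.97 FPKM in liver cKO and 641 to 742 in liver YFP+. These 4 are globin genes with near-equal values within a pair, so they are not 4 separate results. Liver YFP+ means were 190.7 and 193.6 FPKM for Hbb-b1 and Hbb-b2, and 160.4 and 159.8 for Hba-a1 and Hba-a2. B cell genes (8, with 5 of 5 tested lower) summed to 6.31 to 9.43 against 94.6 to 104 FPKM, and myeloid genes (11, with 4 of 6 tested lower) to 21.5 to 23.8 against 65.1 to 88.0. DP thymocyte genes (10, with 6 of 6 tested lower) summed to 23.5 to 24.6 FPKM in cKO and 82.4 to 91.3 in YFP+. Cell cycle genes (20, with 14 of 19 tested lower and 1 higher) summed to 283 to 296 against 419 to 424 FPKM. Beside these counts, the shares over all genes were 19.7% lower and 7.49% higher in cKO liver, and 13.1% lower in cKO thymus. Hepatocyte genes (10) summed to 102 to 111 against 99.2 to 105 FPKM in the liver, and to 8.16 to 10.95 against 28.0 to 31.6 in the thymus. Ass1 and Trf made most of both sums and moved in opposite directions. Ass1 was higher in cKO, at means of 92.8 against 62.45 FPKM in the liver and 3.926 against 1.39 in the thymus. Trf was lower in cKO, at 12.16 against 38.42 FPKM in the liver and 4.801 against 27.62 in the thymus. Ttr and Fgb were at 0 in all 6 liver libraries and Alb at no more than 0.059 FPKM. Liver endothelium and stroma genes (8) summed to 1.55 to 2.48 FPKM in cKO and 3.38 to 4.12 in YFP+ liver, and to 1.15 to 1.32 against 2.26 to 2.66 in the thymus, with Pecam1, the 1 gene tested, lower in cKO in both. Single genes of the lists were uneven. The Kupffer cell gene Clec4f was at 0 in all 3 liver YFP+ libraries, and the red cell gene Slc4a1 at no more than 0.017 FPKM in any liver library. Of the same lists, C1qb had liver means of 3.608 FPKM in YFP+ and 0.5037 in cKO, and Alas2 of 0.7513 and 0.065. No single gene stands for its list. In the thymus the cell cycle sum was 132 to 144 FPKM in cKO and 161 to 182 in YFP+, and the DP thymocyte sum 6.39 to 8.46 against 12.7 to 17.6. Cd1d1 and Cd4 made most of that thymus DP sum, at means of 6.027 and 0.4293 FPKM in cKO and 10.97 and 2.875 in YFP+. The other genes of the list lay below 1 FPKM in every thymus library and moved both ways. Dntt was 0.137 against 0.029 FPKM and Themis 0.177 against 0.6523. The part of other cells and of proliferation in the enzyme differences was not tested.

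**Figure D4:**
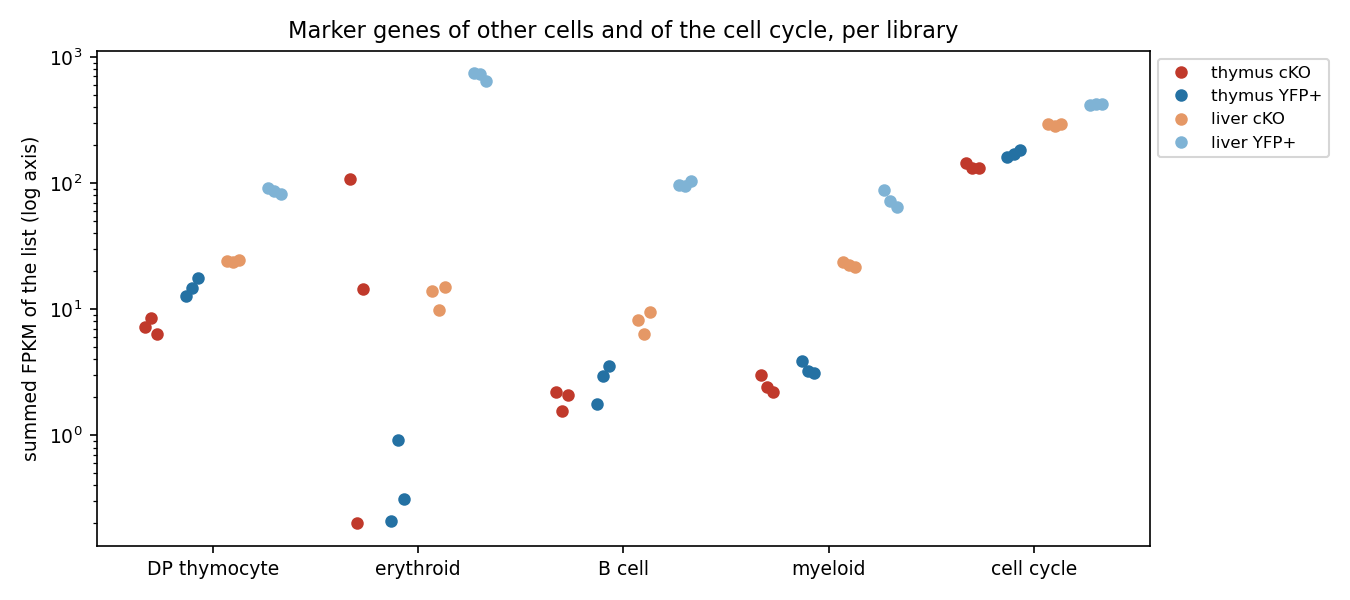
Summed FPKM (log axis) of marker lists of DP thymocytes, erythroid, B and myeloid cells and of cell cycle genes, 1 point per library in the 4 groups. Liver YFP+ libraries lie above liver cKO libraries in all 5 lists, and in the thymus cKO replicate 1 has the highest erythroid sum, 107.7.

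Between the tissues, 4 members, Dld, Idh3b, Ldhb and Mdh2, were called lower in both, which is 4 of the 7 thymus calls and 4 of the 18 liver calls. Over all genes 13.1% were lower in the thymus and 19.7% in the liver. The share of all genes lower in both was not computed. Whether 4 exceeds what the separate counts give was not tested. With the liver groups taken from the descriptions, 0 members would be called in the same direction in both tissues and these 4 in opposite directions. Another 3 were called in the thymus alone, 14 in the liver alone, and 9 tested members in neither. Whether a gene's cKO difference itself differed between liver and thymus was tested on all 12 libraries. Of 30 members 2 gave a higher difference in the liver (Gpi1 and Pfkp) and 2 a lower one (Pgam1 and Mdh2), which is 6.67% each way, beside 9.14% higher and 5.91% lower over 9739 genes. Each of these shares rests on 2 genes and is near the background. This test rests on the liver titles. With the liver contrast turned, as the descriptions have it, 18 members gave a higher and 2 a lower difference, beside 28.5% higher and 6.31% lower over all genes. Without liver YFP+ replicate 3 the count by title was 8 (17.5% of all genes called), and without thymus cKO replicate 2 or 3, thymus YFP+ replicate 2 or liver YFP+ replicate 2 it was 2 (10.5 to 11%). Liver minus thymus was 0.44 (SE 0.11, adjusted p = 0.0111) for Pfkp and 0.34 (SE 0.10, adjusted p = 0.0244) for Gpi1. It was -0.66 (SE 0.13, adjusted p = 0.00853) for Pgam1 and -0.42 (SE 0.11, adjusted p = 0.0374) for Mdh2. The calls of Pfkp and Pgam1 held in each of 12 fits without 1 library (adjusted p of at most 0.0306 and 0.0268). Gpi1 was lost in 6 of those fits, without thymus cKO replicate 2 or 3, thymus YFP+ replicate 2 or 3, liver cKO replicate 1 or liver YFP+ replicate 2 (0.0537 to 0.0603). Mdh2 was kept only without thymus YFP+ replicate 3 or liver YFP+ replicate 3 (others 0.0560 to 0.0962). For Ldhb the tissue difference was -0.56 (SE 0.21, adjusted p = 0.135) and did not pass. Its YFP+ means were 3.87-fold higher in the thymus and 3.93-fold higher in the liver, so the folds were nearly alike. The log2(FPKM + 1) scale understates the change at the low thymus levels. By the liver descriptions the difference was 0.11 for Pfkp (adjusted p = 0.0222), -0.14 for Gpi1 (0.427), 0.25 for Pgam1 (0.00942), 0.75 for Mdh2 (3.61e-05) and 2.94 for Ldhb (8.56e-07), less a median gene at 0.26, so that all but Pfkp of these turned in sign.

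Among 103 further genes of the same pathways and their regulators, 61 were tested in the thymus, with 0 higher and 9 lower in cKO, beside 2.64% higher and 13.1% lower over all genes. In the liver 64 were tested, with 5 higher and 7 lower, beside 7.49% and 19.7% over all genes. These shares are near or below the background. Levels are cKO against YFP+, mean ± SD, n = 3. With median-ratio scaling the counts were 2 higher and 5 lower in the thymus (4.97% and 3.96% over all genes) and 6 higher and 2 lower in the liver (10.8% and 10.9%). Of 19 tested regulators in the thymus 3 were lower, beside 13.1% over all genes. Hif1a, the oxygen-regulated subunit of HIF-1, was 7.92 ± 0.266 against 12.8 ± 1.04 FPKM in the thymus (-0.46, SE 0.09, adjusted p = 0.00336), and its call held in each fit without 1 library and with median-ratio scaling (0.00807). Its partner Arnt was 2.24 ± 0.159 against 3.13 ± 0.225 FPKM (-0.19, SE 0.09, adjusted p = 0.0424), a call kept among fits without 1 library only without cKO replicate 1 (0.0335, against 0.0791 to 0.126) and lost under all 3 scalings (0.105 to 0.252). Ddit4, an inhibitor of mTORC1 that hypoxia and glucocorticoids induce, was 3.55 ± 1.31 against 9.37 ± 2.76 FPKM (-1.04, SE 0.24, adjusted p = 0.0166), and was lost without YFP+ replicate 3 (0.0639) and with no filter on low values (0.0634). In the liver Hif1a was 1.81 ± 0.167 against 2.23 ± 0.559 FPKM (adjusted p = 0.417).

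Myc, a transcription factor that drives glycolytic genes in activated T cells, was 22.8, 20.2 and 21.4 FPKM in cKO and 8.64, 9.995 and 11.4 in YFP+ liver. Every cKO library was above every YFP+ library (1.14, SE 0.12, adjusted p = 0.000793), and the call held in each fit without 1 library (highest adjusted p = 0.00624). In the thymus Myc was 9.15, 10.02 and 10.1 FPKM in cKO and 9.92, 9.69 and 7.66 in YFP+ (0.26, adjusted p = 0.515). Rptor, the Raptor subunit of mTORC1, was also higher in cKO liver, 6.21 ± 1.21 against 2.85 ± 0.221 FPKM (1.0, SE 0.15, adjusted p = 0.00402), and Tfam, which maintains mitochondrial DNA, lower, 13.7 ± 0.807 against 18.4 ± 1.19 FPKM (-0.28, SE 0.10, adjusted p = 0.0193). The Tfam call was lost without cKO replicate 2 or 3 or YFP+ replicate 2 (0.0625 to 0.0735) and under all 3 scalings (0.0952 to 0.226). Txnip, an inhibitor of glucose uptake, passed in neither tissue (0.42 in the thymus, adjusted p = 0.303, and 0.17 in the liver, adjusted p = 0.631).

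Of 5 tested regulators of glycolytic flux 1 passed in each tissue, beside 15.7% of all genes called in the thymus and 27.2% in the liver. Pdk3, a kinase that inhibits pyruvate dehydrogenase, was lower in cKO thymus, 4.11 ± 0.707 against 7.48 ± 0.609 FPKM (-0.57, SE 0.12, adjusted p = 0.00782), a call that ended when the spread was estimated over all 12 libraries (0.102). Pdk4, of the same family, was higher in cKO liver, 3.59 ± 0.413 against 2.05 ± 0.642 FPKM (0.72, SE 0.18, adjusted p = 0.0369), and lost the call without cKO replicate 1, 2 or 3 or YFP+ replicate 3 (0.0629 to 0.116) and with no filter (0.0993). Pdk1 was 5.69 ± 0.783 against 6.38 ± 0.355 FPKM in the thymus (adjusted p = 0.332) and below the tested level in the liver (0.516 ± 0.123 against 0.801 ± 0.237 FPKM), where Pfkfb3, which raises phosphofructokinase activity, was 1.046 ± 0.0252 against 0.764 ± 0.198 FPKM and not tested either. Thymus Pfkfb3 was 0.956 ± 0.103 against 1.025 ± 0.0359 FPKM and not tested.

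Of 27 tested further pyruvate and citric acid cycle genes in the liver 2 were higher and 4 lower, and of 25 in the thymus 2 were lower. Over all genes 7.49% were higher and 19.7% lower in the liver, and 13.1% were lower in the thymus. Sdhc, a membrane anchor of succinate dehydrogenase, was 49.1 ± 1.17 against 78.3 ± 1.13 FPKM in the liver (-0.55, SE 0.07, adjusted p = 0.000582), and held in each fit without 1 library (highest adjusted p = 0.00514). Acly, ATP citrate lyase, which takes citrate to cytosolic acetyl-CoA, was higher, 23.1 ± 1.82 against 14.2 ± 0.958 FPKM (0.77, SE 0.10, adjusted p = 0.00281), as was the malic enzyme Me2, 65.3 ± 3.92 against 41.9 ± 11.3 FPKM (0.77, SE 0.18, adjusted p = 0.029). Acly held in each fit without 1 library (highest adjusted p = 0.0161), and Me2 was lost without cKO replicate 1, 2 or 3 or YFP+ replicate 2 (0.0573 to 0.0911) and with no filter (0.0912). The other 3 liver genes, all lower and named after their values were seen, were Sdhb, Sdhd and Brp44. In the thymus Sdhb, the iron-sulfur subunit, was 39.5 ± 2.05 against 52.6 ± 6.4 FPKM (-0.24, SE 0.10, adjusted p = 0.0319) and Slc25a11, the 2-oxoglutarate carrier, 27.9 ± 3.78 against 37.03 ± 3.34 FPKM (-0.24, SE 0.11, adjusted p = 0.0453). Both thymus calls were kept, among fits without 1 library, only without cKO replicate 1 (0.0219 for Sdhb and 0.00929 for Slc25a11, against 0.0552 to 0.144). Both were lost under median-ratio scaling (0.127 and 0.22).

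Of the pentose phosphate pathway, which makes NADPH and ribose from glucose, 2 of 8 tested genes were lower in cKO thymus and 1 of 9 in cKO liver, beside 13.1% and 19.7% over all genes. H6pd, the hexose-6-phosphate dehydrogenase of the endoplasmic reticulum, was 4.52 ± 1.01 against 8.34 ± 0.484 FPKM in the thymus (-0.61, SE 0.13, adjusted p = 0.00871), and held in each fit without 1 library (highest adjusted p = 0.0389). Rpe, ribulose phosphate epimerase, was 4.49 ± 0.586 against 6.22 ± 0.236 FPKM (-0.23, SE 0.10, adjusted p = 0.0343), kept only without cKO replicate 1 (0.00925, against 0.0815 to 0.112) and lost under all 3 scalings (0.0621 to 0.148). Taldo1, transaldolase, was 99.1 ± 2.52 against 124 ± 2.76 FPKM in the liver (-0.21, SE 0.07, adjusted p = 0.0108), lost without cKO replicate 1 (0.0545) and under all 3 scalings (0.107 to 0.509). Of 4 tested further isoenzymes and carriers of glycolysis 1 was lower in each tissue, beside the same 13.1% and 19.7% over all genes. The thymus gene was the carrier Slc2a8, 3.96 ± 1.05 against 7.74 ± 1.59 FPKM (-0.66, SE 0.18, adjusted p = 0.0223), lost without cKO replicate 2 or YFP+ replicate 2 or 3 (0.0524 to 0.0860) and with no filter (0.0723) or quantile normalization (0.0507). The liver gene was Bpgm, bisphosphoglycerate mutase, an enzyme abundant in red cells, 2.304 ± 0.175 against 5.29 ± 1.7 FPKM (-0.79, SE 0.19, adjusted p = 0.01). Erythroid sums are given above, and the part of red cells in this call was not tested.

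**Figure D5:**
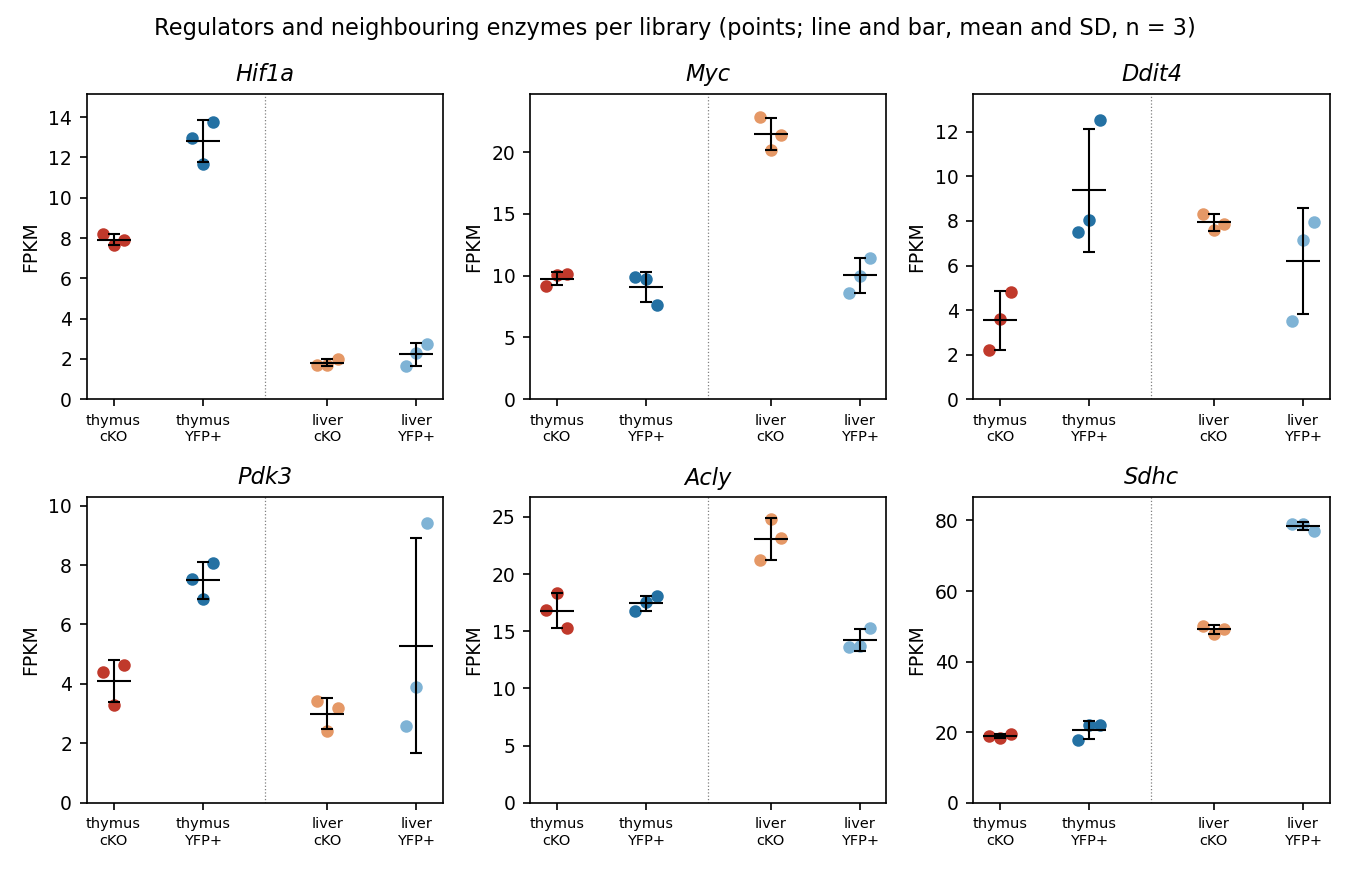
FPKM per library of 6 regulators and neighbouring enzymes (points, 3 libraries in each of 4 groups; line and bar, mean and SD; axes start at 0; the dotted line parts the separately normalized tissues). Hif1a and Ddit4 are lower in all thymus cKO libraries than in any thymus YFP+ library, and Myc and Acly are higher in all liver cKO libraries than in any liver YFP+ library.

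The remaining isoenzyme shares gave 2 further cases without overlap. Eno3 made 0.662% ± 0.0867 of both enolase genes in liver cKO and 0.440% ± 0.0402 in liver YFP+ (SD, n = 3, exact permutation p = 0.1, adjusted 0.28). Slc16a3 made 13.0% ± 0.921 of both lactate carriers in cKO and 28.0% ± 3.24 in YFP+ of the thymus (SD, n = 3, exact permutation p = 0.1, adjusted 0.28), though each of these carriers was at low level. The other 9 of 14 shares overlapped between groups.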

How the data were processed

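The authors deposited 1 table of FPKM per tissue, made with TopHat2 (2.8.0 as listed) and Cufflinks 2.1.1 on mm9, per the submitters' processing notes. The labels' protocols name a SMARTer kit for cDNA and TruSeq or ThruPLEX for the libraries. The kit of each library and the use of strand are not given in the sources used here. FPKM divide by length and mapped total, and how reads of near-identical copies were assigned is not stated. All 12 libraries and 23284 genes were used, with 0 unmapped columns. Libraries of a group correlated at 0.972 to 0.991 across genes, and no 2 held the same values.

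limma 3.58.1 (R 4.3.3) was run with a variance trend on log2(FPKM + 1), keeping genes whose mean in the libraries of a fit reached 1 FPKM, with Benjamini-Hochberg adjustment over all tested genes at 0.05. The fits were checked on simulated data with independent noise for each gene and changes of 1 on the log2 scale. Such changes are larger than all member differences but those of Ldhb, so the check does not cover smaller changes. Comparisons were cKO against YFP+ in each tissue and the liver minus thymus difference of these. Shares used exact permutation tests (Python 3.11.15, scipy 1.17.1). Shared sequence was counted in windows of 50 bases of GENCODE transcripts. Members and lists were chosen with earlier results of these data known. Named were members that passed or that the list always names, and per pathway list and tissue up to 3 genes that passed without overlap, by size. Alternatives were pseudocounts of 0.1 and 0.5, no filter or a mean of 5 FPKM, 3 scalings, a replicate block, array weights, no variance trend, a spread over all 12 libraries, and each library left out. The liver groups by description and, for summed levels, rescaling and leaving out libraries were added after seeing the data.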

Additional observations from a re-analysis of the deposited data

Results flagged for a closer look

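The cKO difference itself differed between the tissues for 10 genes by the test of that difference in limma, as liver minus thymus on the log2(FPKM + 1) scale less the median gene. Of the 35 enzymes and carriers these were Pfkp (0.44), Gpi1 (0.34), Mdh2 (-0.42) and Pgam1 (-0.66). Gpi1 also had groups that did not overlap in opposite directions, with a liver ratio of means, cKO over YFP+, of 1.1. Of the further pathway genes they were Ddit4 (1.51, SE 0.38, adjusted p = 0.0172), Myc (0.87, SE 0.16, adjusted p = 0.00301), Acly (0.65, SE 0.13, adjusted p = 0.00366) and Sdhc (-0.61, SE 0.12, adjusted p = 0.0114), whose calls held in each of 12 fits without 1 library. The difference was 0.44 (SE 0.14, adjusted p = 0.0369) for D2hgdh and 0.41 (SE 0.14, adjusted p = 0.0453) for G6pdx, both lost in most of those fits (up to 0.0907 and 0.110). These 10 rest on liver groups taken from the titles. With the liver contrast turned, as the descriptions have it, 6 of the 10 passed, Pfkp (0.11), Pgam1 (0.25), Mdh2 (0.75), Sdhc (0.52), Acly (-0.86) and Myc (-1.39), of which Pfkp alone kept its sign, and Gpi1, Ddit4, D2hgdh and G6pdx did not pass.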

How the results depend on the processing

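Counts of called members moved with scaling and with the libraries used. The thymus count of 7 became 13 with array weights and 4 when no low genes were removed (30.8% and 3.68% of all genes called, against 15.7%), and lay between 2 and 10 without 1 library (5.20 to 26.5%). The liver count of 18 became 8 with median-ratio scaling, 9 with equal library sums, 10 with quantile normalization and 11 without a variance trend (21.7, 21.2, 22.3 and 24.5% of all genes called, against 27.2%), and lay between 9 and 15 without 1 library (16.1 to 27.6%). The count of 4 for the difference between tissues became 7 with equal library sums, 8 with quantile normalization and 9 with array weights (17.0, 16.1 and 27.0% of all genes called, against 15.1%), and lay between 2 and 8 without 1 library (10.1 to 17.5%). Same-numbered cKO and YFP+ libraries correlated at -0.0634 to 0.0659 in their deviations from group means, and different-numbered ones at -0.113 to 0.11. The numbers thus gave no sign of pairing, but so few pairs cannot exclude it. With a replicate block 4 members were called in the thymus, 12 in the liver and 2 for the difference (8.65, 23.1 and 10.9% of all genes called). With the liver groups by description, an alternative added after seeing the data, 20 members were called for the difference, and the sign turned for Gpi1 (-0.14), Pgam1 (0.25), Mdh2 (0.75), Sdhc (0.52), Acly (-0.86), D2hgdh (-0.21), G6pdx (-0.07) and Myc (-1.39).

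Small differences changed sign. With no filter on low values, thymus Gapdh (-0.09), Ldha (-0.12), Ogdh (-0.12) and Pdk1 (-0.13) and liver Slc2a3 (-0.06) and Pkm2 (-0.02) turned below the median gene, as did thymus Gapdh with quantile normalization (-0.02). Liver Pdha1 turned to 0.01 with a pseudocount of 0.1, 0.05 with a mean of at least 5 FPKM, 0.01 with median-ratio scaling, 0.02 with equal library sums, 0.07 with quantile normalization and 0.05 with array weights, and to 0.01 to 0.03 without cKO replicate 2 or 3 or YFP+ replicate 3. Without 1 library, thymus Cs reached 0.00 without YFP+ replicate 3, thymus Ogdh lay between -0.01 and 0.08, thymus Pdk1 between -0.03 and 0.09 (-0.00 without YFP+ replicate 1 or 3), liver Slc2a3 between -0.04 and 0.18 and liver Hif1a between -0.19 and 0.01. None of these differences had passed.

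Of the shares (cKO minus YFP+, percentage points), those of Hk2 (thymus -0.398 to 0.428, liver -2.53 to 0.288), Pfkp (liver -0.0333 to 3.9), Aldoc (liver -0.172 to 0.0429), Eno3 (thymus -0.138 to 0.258) and Slc16a3 (liver -3.42 to 7.71) took both signs when 1 library was left out, all of them with overlapping groups. The Ldhb share did not change sign without any 1 library. Summed liver levels (log2 ratio less the median gene) moved without YFP+ replicate 1 to 0.17 for upper glycolysis, 0.07 for lower glycolysis and -0.32 for lactate dehydrogenase, and without YFP+ replicate 3 to -0.04, -0.44 and, for the citric acid cycle, -0.50. Without 1 library the lowest value for upper glycolysis was 0.11 and the highest for the citric acid cycle -0.37. Upper glycolysis was 0.17 with equal library sums. The cause was not tested. Depth is unknown, which limits what can be said of genes near 0.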
